A study of Mus musculus with 4 samples.

Results

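The genes described here are the matrix metalloproteinases (Mmp), the Adamts proteases and their inhibitors, the Timp genes, as read from peaks of transcription initiation in mouse embryonic liver and yolk sac. Members were the protein-coding genes of the GENCODE M21 annotation of GRCm38 whose symbol is Mmp with a number and an optional a or b, Adamts with a number, or Timp with a digit. The rule found 45 genes among 21951 protein-coding genes, of which 22 were Mmp, 19 Adamts and 4 Timp genes. Mmp1a carried a matching symbol but is annotated as a polymorphic pseudogene and was not a member.

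MMPs and ADAMTS proteases are zinc-dependent enzymes that cut the extracellular matrix, and most are secreted as inactive precursors or held at the cell surface. MMPs are grouped by substrate and anchorage into collagenases, gelatinases, stromelysins, matrilysin and membrane-type enzymes. ADAMTS proteases trim procollagens, cleave large proteoglycans such as aggrecan and versican, or cut single substrates such as von Willebrand factor. TIMPs block the active sites of MMPs, and Timp3 also blocks several ADAMTS enzymes. The fetal liver is chiefly a site of red cell production, whereas the yolk sac is an absorptive endoderm over a mesoderm rich in matrix and vessels.

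The series holds 4 PRO-seq libraries from E14.5 embryos, with 2 of liver and 2 of yolk sac, each from tissue pooled from 6 embryos. PRO-seq maps engaged RNA polymerase by extending nascent RNA in isolated chromatin. All libraries share 1 cross: C57BL/6J mothers were mated with fathers of a mixed C57BL/6J and CAST/EiJ background that had only CAST/EiJ alleles at the imprinted Dlk1/Gtl2 locus of chromosome 12, and the labels name no treatment or mutant. The strain label reads C57BL/6h mixed with CAST/EiJ. The labels do not say whether the 2 pools of a tissue shared litters, so the spread between them may be partly technical, and in bulk tissue fewer cells of a type and less initiation per cell cannot be told apart.

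Each deposited list gives peaks, which are intervals called as transcription start regions, with a score that has no unit. The liver lists were 24863 and 24333 peaks long and the yolk sac lists 50525 and 43055, and the read depth behind them is unknown. A promoter peak is a peak that reaches within 500 bp of any annotated start of the gene, and a gene-body peak lies in the gene but is not a promoter peak of it. Scores are given as a percentile within the list, the share of that list's peaks with the same or a lower score. Because the lists differ in length, percentiles are compared with other promoters of the same list and not between tissues. Tissues were compared by exact two-sided permutation tests over the 4 libraries, which cannot give a p under 0.333.

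The labelled tissues were checked against marker genes. All 8 erythroid markers had promoter peaks in each liver list and 2 in each yolk sac list, and Gata1, Klf1, Alas2, Slc4a1, Epb42 and Ermap were called in both liver libraries and neither yolk sac library. Of 6 yolk sac endoderm markers, the yolk sac libraries called 6 and 6 and the liver libraries 4 and 2. Amn and Cubn were absent from both liver lists, Apob and Dab2 were called in every library, and Lrp2 and Afp lacked a call in liver replicate 2 alone. Markers of other cells were counted too. Over all coding genes, 56.1% and 57.9% had a promoter peak in liver and 63.8% and 62.4% in yolk sac. Of 6 mesenchymal markers, liver gave calls at 4 and 5 genes and yolk sac at 6 and 6. The 6 endothelial markers gave the same counts, and in each of these sets 4 genes were called in all 4 libraries. The 6 macrophage markers gave 4 and 4 calls in liver against 6 and 5 in yolk sac, and the 6 neutrophil granule genes 5 and 3 against 2 and 2. The 8 hepatic markers gave 6 and 5 against 6 and 6, and the 5 megakaryocyte markers 3 and 2 against 2 and 2. The part of these cell types in the results below was not tested.

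More of the protease and inhibitor genes had promoter peaks in yolk sac, as did more coding genes in general. Of the 45 genes, liver libraries had a promoter peak at 21 and 24, and yolk sac libraries at 31 and 28. Over all coding genes the shares were 56.1% and 57.9% in the liver lists, against 63.8% and 62.4% for yolk sac. Liver averaged 22.5 ± 2.12 genes and yolk sac 29.5 ± 2.12 (SD, n = 2), so that the tissues differed by 7 genes and did not overlap (exact permutation p = 0.333). Yolk sac lists are longer, and when each list was held to its 24333 highest-scoring peaks liver had 20 and 24 such genes against 24 and 24 for yolk sac, a difference of 2 genes that lay within the spread of the liver libraries (exact permutation p = 1).

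Sorted by library, 18 genes had a promoter peak in all 4 lists, against 53.8% of all protein-coding genes. In 14 genes no list had one, against 34.2%. Yolk-sac-only calls, in both yolk sac libraries and neither liver library, were made at 3 genes, namely Adamts8, Adamts17 and Mmp23, where the rate over all coding genes was 5.25%. Liver-only calls were made at 0 genes, with a rate of 1.01% over all coding genes. The tissue-only counts are near the background. The remaining 10 genes were called in 1 or 3 libraries. Among them were 5 genes, Adamts2, Adamts15, Adamts20, Mmp2 and Mmp16, called in every library except liver replicate 1. That is 11.1% of members, beside 2.23% of coding genes with exactly these libraries. Adamts4 and Timp1 lacked a call in liver replicate 2 alone, which 0.629% of coding genes did, and Mmp19 lacked one in yolk sac replicate 2 alone, which 0.319% did. A call missing in yolk sac replicate 1 alone was seen at 0 members and 0.0729% of coding genes. Adamts18 and Mmp24 were called in yolk sac replicate 1 alone, as were 1.33% of coding genes. Without liver replicate 1 the yolk-sac-only count was 5, and without liver replicate 2 it was 8. Coding-gene shares were not counted with a library left out.

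**Figure D1:**
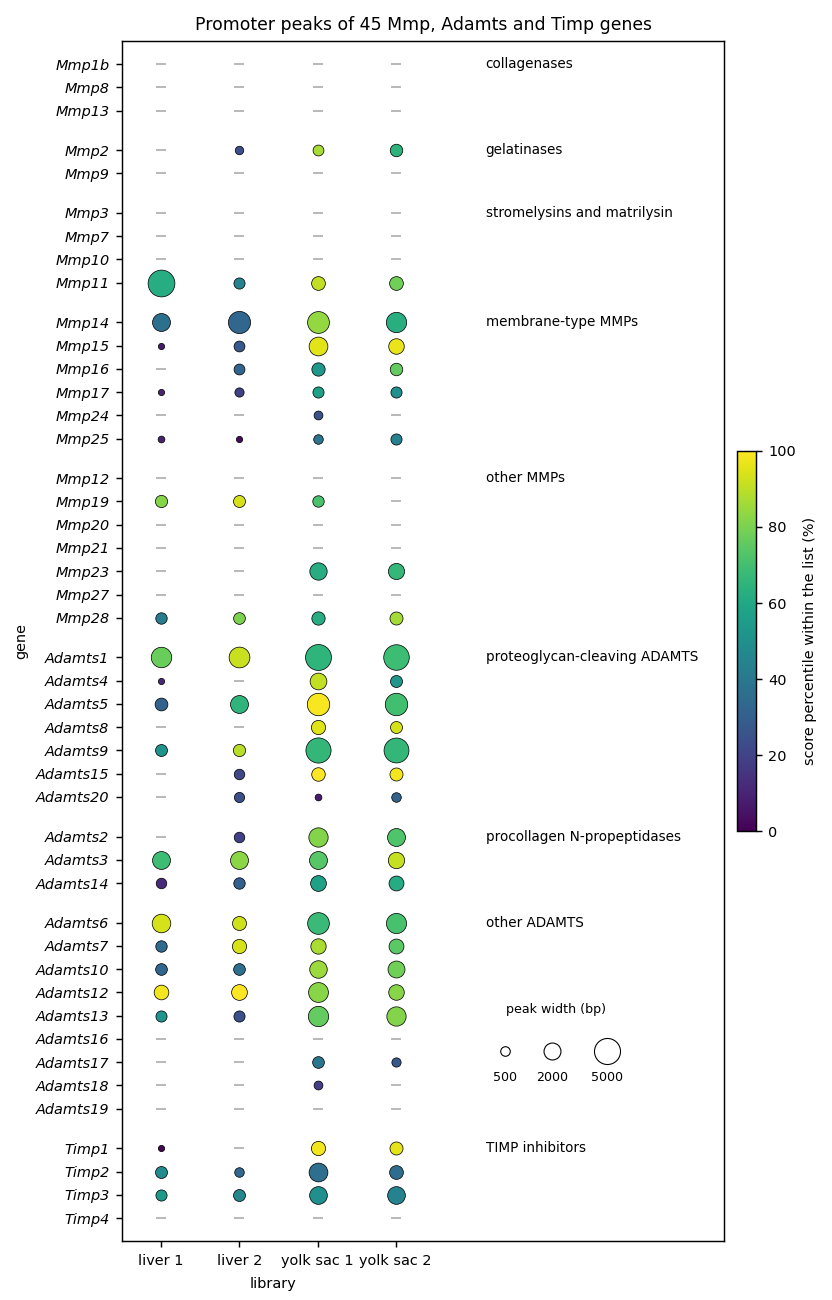
Promoter peaks of the 45 genes (rows, grouped by role) in the 4 libraries (columns). A circle marks the highest-scoring promoter peak, its area rises with peak width in bp and its colour gives the score percentile within that list, and a dash marks no peak. Circles are larger in yolk sac than in liver for most genes called in all 4 libraries, and the collagenase rows are empty.

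The yolk-sac-only genes differed in how their peaks ranked. Adamts8, a protease of the proteoglycan-cleaving branch (chromosome 9, 30942562 to 30963838, plus strand), had peaks of 1352 and 902 bp over its first start, at the 95.1 and 93.4 percentiles of the yolk sac lists. Mmp23, a membrane-bound MMP without the usual hemopexin domain (chromosome 4, 155650655 to 155653384, minus strand), had peaks of 2102 and 1802 bp at its 5′ end, at percentiles 62.3 and 66.7. The median over coding promoters was 71.6 and 72 in these lists, so Adamts8 stood above it and Mmp23 below. A minor Mmp23 peak of 102 and 152 bp lay near an internal start at 155652025. Adamts17, one of the ADAMTS proteases linked to fibrillin matrix (chromosome 7, 66839735 to 67153171, plus strand), had 2 promoter peaks in each yolk sac list. The peak at its first start measured 852 and 402 bp at percentiles 39.4 and 19.3, and the other, at an internal start at 66842255, measured 852 and 452 bp at percentiles 36.5 and 27.4. Both Adamts17 peaks were low in their lists, and no library kept a promoter call for it among the 24333 highest-scoring peaks.

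The promoters of Adamts17 and Mmp23 are shown because they carry the yolk-sac-only calls for which RefSeq's table gives a sequence. Each runs from 250 bases before the transcript start to its first 30 bases, 5′ to 3′ on the gene's strand, with CpG dinucleotides in capitals (GRCm38.p6). Adamts17 is at chr7:66839485-66839764 on the plus strand and Mmp23 at chr4:155653355-155653634 on the minus strand. They hold 13 and 17 CpGs spread along the stretch.
Adamts17: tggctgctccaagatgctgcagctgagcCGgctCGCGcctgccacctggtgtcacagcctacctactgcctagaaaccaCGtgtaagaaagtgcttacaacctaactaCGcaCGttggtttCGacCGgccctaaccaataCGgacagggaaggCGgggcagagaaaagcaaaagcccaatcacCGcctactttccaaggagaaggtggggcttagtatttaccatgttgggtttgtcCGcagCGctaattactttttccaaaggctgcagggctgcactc
Mmp23: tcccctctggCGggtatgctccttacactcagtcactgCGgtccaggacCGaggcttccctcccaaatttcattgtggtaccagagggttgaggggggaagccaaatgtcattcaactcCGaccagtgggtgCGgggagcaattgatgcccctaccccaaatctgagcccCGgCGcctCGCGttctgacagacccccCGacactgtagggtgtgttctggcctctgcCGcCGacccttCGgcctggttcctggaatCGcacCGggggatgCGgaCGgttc

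Proteoglycan-cleaving ADAMTS genes were called in 4 and 5 of 7 cases in liver and 7 and 7 of 7 in yolk sac, beside coding-gene shares of 56.1% and 57.9%, and of 63.8% and 62.4%. Adamts15 (chromosome 9, 30899155 to 30922452, minus strand) starts 20110 bp from Adamts8 and is transcribed away from it. Its promoter had no peak in liver replicate 1, a 652 bp peak at percentile 21.4 in liver replicate 2, and peaks of 1202 and 1102 bp at percentiles 99.9 and 98.4 in the yolk sac lists. In the yolk sac lists both genes of this pair stood above the coding-promoter medians of 71.6 and 72. Adamts5, a main aggrecanase with 1 annotated start, had peaks of 1052 and 2252 bp in liver and of 3652 and 3652 bp in yolk sac. Both yolk sac peaks were wider than either liver peak.

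Adamts9 and Adamts4 show how peak boundaries bear on the calls. At Adamts9, which cleaves versican and aggrecan (chromosome 6, 92772699 to 92943492, minus strand), the liver peaks at the start measured 902 and 952 bp and the yolk sac peaks 4652 and 4552 bp. Liver also had a separate peak about 1.8 kb into the gene, at 92941451 to 92941952, which the single yolk sac peak covered. That site was therefore called in all 4 libraries, under a different division into peaks. The yolk sac peak of Adamts9 also reached the start of the noncoding transcript 9530026P05Rik. At Adamts4, an aggrecanase, the peaks lay around an internal start at 171252116, and the peak of yolk sac replicate 1 also came within reach of the 5′ end. They measured 102 bp in liver replicate 1 and 1952 and 902 bp in yolk sac, with none in liver replicate 2. Adamts20 had peaks only at an internal start near 94404258, of 602 bp in liver replicate 2 and of 152 and 502 bp in yolk sac, and none at the 5′ end of the gene record. Among coding genes with a promoter peak in any list, 6.36% had peaks at internal starts alone.

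The procollagen N-propeptidases remove the amino-terminal propeptide of fibrillar collagens, and Adamts3 also takes part in activating a lymphatic growth factor. Of Adamts2, Adamts3 and Adamts14, the liver libraries called 2 and 3 and the yolk sac libraries 3 and 3. The coding-gene shares were 56.1% and 57.9% in liver and 63.8% and 62.4% in yolk sac. Adamts3 and Adamts14 were called in all 4 libraries. Adamts2 (chromosome 11, 50602084 to 50807573, plus strand) had no promoter peak in liver replicate 1 and a 652 bp peak at percentile 19.1 in liver replicate 2. Its yolk sac peaks measured 2652 and 2252 bp, at percentiles 81.4 and 72.5. Coding promoters had medians of 67 in liver replicate 2 and of 71.6 and 72 in the yolk sac lists. The Adamts2 peaks also reached the start of the predicted gene Gm12198. Adamts3 was among the exceptions in the width comparison, with 2252 and 2252 bp in liver and 2252 and 1852 bp in yolk sac. Its tissues overlapped.

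Of the 9 remaining ADAMTS genes, Adamts6, Adamts7, Adamts10, Adamts12 and Adamts13 were called in all 4 libraries. The Adamts6 peak of liver replicate 2 ended at 104287352, near the edge of the window before the start at 104287835. With a window of 250 bp, or an overlap of at least 200 bp, Adamts6 was not called in all 4 libraries. Adamts13, which cuts von Willebrand factor and is made in liver stellate cells, had peaks of 752 and 752 bp in liver and of 2952 and 2652 bp in yolk sac. Its percentiles were 51.8 and 24.7 for liver, below the coding-promoter medians of 67.6 and 67 in those lists. In the yolk sac lists they were 75.9 and 81.4, above the medians of 71.6 and 72. Its yolk sac peaks were several times wider and did not overlap the liver values. Adamts12, which cleaves the cartilage protein COMP, ranked high in liver, at percentiles 98.3 and 99.8, with peaks of 1452 and 1702 bp. In the yolk sac lists its peaks of 2802 and 1652 bp stood at percentiles 82.4 and 82.4. Adamts18 had a peak in yolk sac replicate 1 alone, and Adamts16 and Adamts19 had no promoter peak in any of the 4 lists.

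Among genes called in all 4 libraries, promoter peaks were wider in yolk sac. In 14 of the 18 genes both yolk sac peaks were wider than either liver peak, where 34.5% of 11805 coding genes called in all 4 libraries showed this. The reverse held for 0 of the 18 genes, against 20.9% of those coding genes. The median log2 ratio of yolk sac over liver width was 1.2 over the members and 0.05 over the coding genes. As a geometric mean the 18 peaks were 868 and 986 bp wide in liver, and 2129 and 1884 bp wide in yolk sac. Over the coding genes it was 1580 and 1483 bp in liver and 1796 and 1599 bp in yolk sac. Thus the members' peaks were narrower than the coding-gene mean in liver and wider in yolk sac. The members' mean log2 width was 9.853 ± 0.129 for liver and 10.97 ± 0.125 for yolk sac (SD, n = 2). The difference of 1.11 was larger than the spread within either tissue (exact permutation p = 0.333). With lists of equal length 15 genes stayed in the comparison, 11 of them were wider in both yolk sac libraries, against 35.3% of coding genes, and the median log2 ratio was 0.81 against 0.06.

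Score ranks were set beside the coding promoters of the same list. Over the same 18 genes the median percentile was 44.6 and 45 for liver, where coding genes called in all 4 libraries had medians of 68.5 and 68.7. In the yolk sac lists the members' medians were 70.8 and 70.3, beside 72.8 and 73.4. Of the 18 genes, 4 and 7 stood above the coding-gene median of the liver lists, and 9 and 8 above that of the yolk sac lists. The members' promoters were therefore low in the liver lists and near the middle of coding promoters in the yolk sac lists. Very short peaks of up to 200 bp were found at 3 and 1 of the 18 genes in liver, against 0.949% and 0.424% of the coding genes, and at 0 and 0 in yolk sac.

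**Figure D2:**
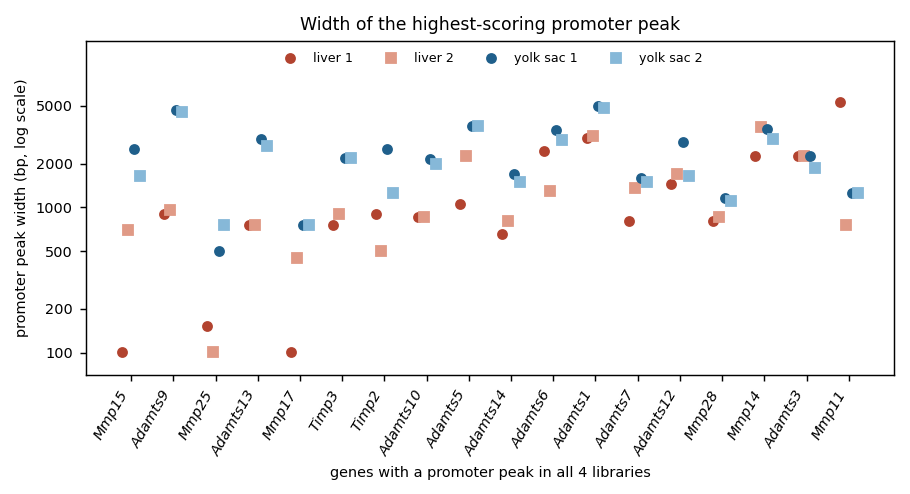
Width in bp (log scale) of the highest-scoring promoter peak of the 18 genes called in all 4 libraries, with 1 point per library, ordered by the ratio of yolk sac over liver. Points of both yolk sac libraries lie above both liver points in 14 genes, and Adamts12, Mmp14, Adamts3 and Mmp11 are the genes where the tissues overlap.

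Membrane-type MMPs act at the cell surface, where Mmp14 activates the precursor of Mmp2. They were called in 4 and 5 of 6 cases in liver and 6 and 5 of 6 in yolk sac, where 56.1% and 57.9%, and 63.8% and 62.4%, of coding genes were called. Mmp15 showed the largest width ratio among the 18 genes, 7.6-fold, although its highest-scoring peak in liver replicate 1 was at an internal start. At its first start the peaks measured 102 and 702 bp in liver, at percentiles 3.22 and 27.6, and 2502 and 1652 bp in yolk sac, at percentiles 95.6 and 96.6. An internal start of Mmp15 near 95369871 followed the same order, with 102 and 552 bp in liver and 1252 and 1002 bp in yolk sac. Coding promoters had median percentiles of 67.6 and 67 for liver, and of 71.6 and 72 for yolk sac, so the first-start peak was below the median of each liver list and above that of each yolk sac list. Mmp14 had wide peaks in each tissue, of 2252 and 3552 bp in liver and 3452 and 2952 bp in yolk sac, and the tissues overlapped. The GPI-anchored Mmp17 and Mmp25 had short peaks in liver, of 102 and 452 bp and of 152 and 102 bp, and peaks of 752 and 752 bp and of 502 and 752 bp in yolk sac. Mmp25 is known from neutrophils, and its liver peaks stood at percentiles 9.49 and 2.72. Mmp24 had a promoter peak in yolk sac replicate 1 alone.

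The gelatinases cut denatured collagen and basement membrane collagen. Mmp2 (chromosome 8, 92827291 to 92853420, plus strand) had no peak in liver replicate 1 and a 352 bp peak at percentile 23.5 in liver replicate 2. Its yolk sac peaks measured 702 and 1002 bp, at percentiles 87.1 and 64.8. Coding promoters had medians of 67 in liver replicate 2 and of 71.6 and 72 in the yolk sac lists. The liver peak and the peak of yolk sac replicate 2 stood below the median of their list. Mmp9, a gelatinase of neutrophils and osteoclasts, had no peak within 500 bp of any of its 4 starts and none in its body in any of the 4 lists. Mmp19 (chromosome 10, 128790910 to 128800824, plus strand) went the other way from most members. Its promoter peak measured 952 and 902 bp in liver, at percentiles 81.7 and 93.7, and 802 bp in yolk sac replicate 1, at percentile 71.4, with none in yolk sac replicate 2. Without yolk sac replicate 1 it was the 1 liver-only gene. Mmp28, called epilysin, had 802 and 852 bp in liver and 1152 and 1102 bp in yolk sac. Mmp11, or stromelysin-3, had 5302 and 752 bp in liver and 1252 and 1252 bp in yolk sac. All of its promoter peaks also reached a start of Chchd10, which overlaps it on the other strand. The 5302 bp peak of liver replicate 1 reached a start of Gm867 as well.

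The collagenases, most stromelysins, matrilysin and several other MMPs lie together on chromosome 9, and this cluster was almost without peaks. From the start of Mmp13 to the end of Mmp7 (7272514 to 7699585, 427072 bp) the annotation has 9 coding genes, all of them members: Mmp13, Mmp12, Mmp1b, Mmp3, Mmp10, Mmp8, Mmp27, Mmp20 and Mmp7. None of them had a promoter or gene-body peak in any of the 4 lists. Neither liver list had a peak in the interval and each yolk sac list had 1. The yolk sac peaks, at 7594851 to 7595602 and 7595051 to 7595402, overlapped each other between Mmp27 and Mmp20 and reached no annotated start. In the 100 kb before the cluster liver had 1 and 2 peaks and yolk sac 3 and 3, and the 100 kb after it held 2 and 2 liver peaks and 4 and 2 yolk sac peaks. The genes without peaks include Mmp8, a neutrophil collagenase, Mmp12, a macrophage elastase, and Mmp20, an enzyme of tooth enamel. Depth is unknown, so a promoter without a peak is one that was not called, which does not show absence of transcription.

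Promoter sequence was examined in RefSeq's table for GRCm38.p6, whose windows run from 250 bases before to 50 after a start. It matched 31 of the 45 genes with 34 windows. The unmatched genes are Adamts4, Adamts5, Adamts6, Adamts7, Adamts8, Adamts10, Adamts15, Adamts16, Adamts19, Mmp2, Mmp9, Mmp16, Mmp17 and Mmp19. Mmp3 and Mmp13, chosen after their values were seen, are printed as examples of the chromosome 9 cluster, at chr9:7445572-7445851 and chr9:7272264-7272543 on the plus strand, from 250 bases before the start to the first 30 of the transcript. Capitals mark matches to the AP-1 letters TGANTCA and to the TATA letters TATAAA, both searched on both strands.
Mmp3: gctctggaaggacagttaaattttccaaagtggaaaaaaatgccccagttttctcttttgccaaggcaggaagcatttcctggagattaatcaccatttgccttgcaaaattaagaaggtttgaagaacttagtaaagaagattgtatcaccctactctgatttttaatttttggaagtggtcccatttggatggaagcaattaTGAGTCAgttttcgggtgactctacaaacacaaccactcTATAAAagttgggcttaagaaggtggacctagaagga
Mmp13: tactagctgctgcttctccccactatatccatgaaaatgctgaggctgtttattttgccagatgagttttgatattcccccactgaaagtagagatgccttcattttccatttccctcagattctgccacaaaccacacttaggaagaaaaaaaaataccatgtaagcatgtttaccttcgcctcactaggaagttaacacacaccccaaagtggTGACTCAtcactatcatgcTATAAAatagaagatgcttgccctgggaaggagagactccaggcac
In each, the AP-1 match lies upstream of the TATA match and close to the start, and each stretch holds 1 CpG.

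Windows of genes without a promoter peak were poor in CpG and those of called genes mostly were not. The CpG observed over expected ratio had a median of 0.09 (range 0 to 0.35) in 13 windows of 11 uncalled genes. It had a median of 0.68 (range 0.09 to 1.01) in 21 windows of 20 genes called in 1 or more libraries, and 0.38 over all 32851 windows of the table. A ratio of at least 0.6 was reached by 0 of the 13 and 15 of the 21 windows, and by 35.8% of the table. The AP-1 letters were found in 7 of the 13 and 0 of the 21 windows, and in 7.81% of the table. TATAAA was found in 9 of the 13 and 1 of the 21 windows, against 13.6%, and the Sp1 letters GGGCGG in 0 of the 13 and 18 of the 21, against 35.7%. The called gene with TATAAA was Adamts1. Adamts13 was called in all 4 libraries at a ratio of 0.09 and Adamts12 at 0.25, so low CpG did not go with a missing peak in every case. Most of the uncalled genes are neighbours in 1 cluster and related by descent, so these windows are not independent, and a match to letters describes the sequence only.

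**Figure D3:**
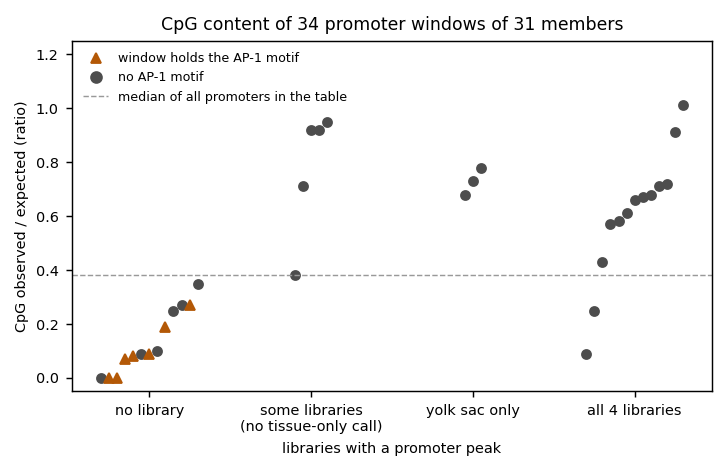
CpG observed over expected ratio of the 34 promoter windows, sorted by the libraries in which the gene had a promoter peak. Each point is a window, triangles hold the AP-1 letters, and the dashed line is the median of the table (0.38). Windows of uncalled genes lie at or below 0.35, and the triangles are all among them.

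The 4 inhibitor genes differed from each other. Timp1 (chromosome X, 20870166 to 20874735, plus strand) had a 102 bp peak at percentile 1.34 in liver replicate 1, none in liver replicate 2, and peaks of 1352 and 1102 bp at percentiles 98.2 and 96 in yolk sac. Its yolk sac peaks stood above the coding-promoter medians of their lists (71.6 and 72) and its liver peak below that of its list (67.6). Timp1 became yolk-sac-only under either score filter. Timp3, which binds to the matrix (chromosome 10, 86300372 to 86349506, plus strand), had 752 and 902 bp in liver and 2202 and 2202 bp in yolk sac. Its percentiles were 53.7, 46.2, 49.5 and 44.4. Timp2, which takes part in activating Mmp2 (chromosome 11, 118301069 to 118355740, minus strand), had 902 and 502 bp in liver and 2502 and 1252 bp in yolk sac, with percentiles between 33.4 and 47.7. Both genes had wider peaks in yolk sac without overlap. Timp4 (chromosome 6, 115241892 to 115252205, minus strand) had no peak in any list. Timp1, Timp3 and Timp4 lie within Syn1, Syn3 and Syn2, on the strand opposite to these synapsin genes.

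Their promoters are shown to set the called inhibitors beside the uncalled Timp4, with CpG in capitals and the same bounds as above. Timp1 is at chrX:20869916-20870195 (plus), Timp2 at chr11:118355382-118355661 (minus), Timp3 at chr10:86300162-86300441 (plus) and Timp4 at chr6:115252176-115252455 (minus).
Timp1: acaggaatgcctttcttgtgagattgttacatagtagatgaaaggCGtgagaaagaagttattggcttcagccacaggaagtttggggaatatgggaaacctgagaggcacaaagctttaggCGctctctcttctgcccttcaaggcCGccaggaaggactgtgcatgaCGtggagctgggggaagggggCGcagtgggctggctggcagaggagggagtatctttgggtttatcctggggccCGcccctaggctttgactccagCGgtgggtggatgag
Timp2: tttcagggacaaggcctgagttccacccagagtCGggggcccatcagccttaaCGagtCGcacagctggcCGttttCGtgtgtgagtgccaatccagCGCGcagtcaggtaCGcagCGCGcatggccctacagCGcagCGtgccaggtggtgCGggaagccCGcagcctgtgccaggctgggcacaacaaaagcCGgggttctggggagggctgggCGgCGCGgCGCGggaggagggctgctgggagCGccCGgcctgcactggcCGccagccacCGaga
Timp3: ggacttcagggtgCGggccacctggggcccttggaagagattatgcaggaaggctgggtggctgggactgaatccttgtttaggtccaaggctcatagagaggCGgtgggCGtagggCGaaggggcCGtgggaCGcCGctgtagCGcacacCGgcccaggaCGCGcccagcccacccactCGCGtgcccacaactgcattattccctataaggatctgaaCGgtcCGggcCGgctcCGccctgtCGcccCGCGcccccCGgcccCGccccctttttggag
Timp4: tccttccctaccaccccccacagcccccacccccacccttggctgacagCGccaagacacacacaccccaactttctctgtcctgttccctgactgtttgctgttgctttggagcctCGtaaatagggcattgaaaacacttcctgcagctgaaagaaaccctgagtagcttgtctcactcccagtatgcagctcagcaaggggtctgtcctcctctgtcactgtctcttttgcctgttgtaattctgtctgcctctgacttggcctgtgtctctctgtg
The stretches hold 7 CpGs at Timp1, 24 at Timp2, 22 at Timp3 and 2 at Timp4. Timp1, with few CpGs, was called mainly in yolk sac, the CpG-rich Timp2 and Timp3 in all 4 libraries, and Timp4 in none. This order held for the inhibitors only. The yolk-sac-only Adamts17 and Mmp23 had CpG ratios of 0.68 to 0.78, beside 0.72 at Timp2 and 0.71 at Timp3.

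Within the genes, yolk sac had more peaks away from the starts. A gene-body peak in 1 or more libraries was found at 21 genes, against 40.6% of coding genes. Their bodies held 9 and 9 liver peaks, and 47 and 38 yolk sac peaks. The means were 9 ± 0 and 42.5 ± 6.36 (SD, n = 2), a log2 ratio of 2.17 with a pseudocount of 0.5 (exact permutation p = 0.333), and 0.694 with lists of equal length. Per Mb of gene this was 2.89 and 2.89 in the liver libraries against 15.1 and 12.2 in the yolk sac libraries, whereas all coding genes had 6.93 and 6.43 against 18.2 and 14.8. The members' density was thus below that of coding genes in each of the 4 lists. Both yolk sac libraries exceeded both liver libraries in 10 genes, and 17.9% of coding genes showed this. Among genes of 100 kb or more it was 5 of 11 members and 48.4% of coding genes, so the share of members was close to the background at this length. Both counts include Adamts12, where the yolk sac libraries shared no gene-body site. Its replicate 2 peak lay within the promoter peak of replicate 1, and its replicate 1 peak was 102 bp wide at percentile 1.45. Liver exceeded yolk sac in 1 gene, Mmp19, against 3.57%.

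**Figure D4:**
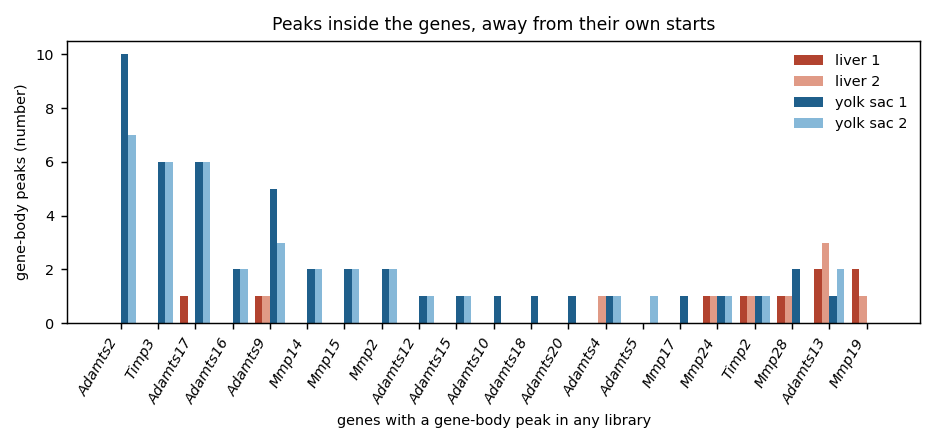
Number of gene-body peaks in each library for the 21 genes with any. Adamts2, Timp3 and Adamts17 stand apart with 6 to 10 peaks in the yolk sac libraries and at most 1 in a liver library, and Mmp19 has peaks in liver alone.

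Adamts2 led this ranking with no gene-body peak in either liver library against 10 and 7 in yolk sac. The regions called in both yolk sac libraries lay between 19.9 and 167.4 kb from its 5′ end. The one with the highest percentile, 84.5 in replicate 1, was at 50717201 to 50719252. Its replicate 1 peak reached the start of Gm12199 and its replicate 2 peak, at percentile 43.8, did not. Timp3 had none in either liver library and 6 and 6 in yolk sac within 49135 bp. Its 4 shared regions included an intronic one at 86341701 to 86343652, 42.3 kb from the start, with percentiles of 60.5 and 74.6. As Timp3 lies inside Syn3, these peaks could belong to either gene. Adamts17 had 1 and 0 liver peaks against 6 and 6 yolk sac peaks, with shared yolk sac regions between 28.5 and 211.6 kb from its 5′ end.

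Smaller excesses in yolk sac were found at Adamts9, Adamts16, Mmp14, Mmp15 and Mmp2. Adamts9 had 1 and 1 liver peaks against 5 and 3 yolk sac peaks, and its leading yolk sac region, at 92868601 to 92870202 with percentiles of 89.5 and 99.4, reached a start of Gm15737. Adamts16 had 0 and 0 against 2 and 2 peaks although it had no promoter peak, and its shared regions lay 100.8 and 110.1 kb into the gene. Mmp14 had 0 and 0 against 2 and 2, but liver replicate 2's promoter peak overlapped part of 1 of its regions. The other lay at the gene's end, where the peak of yolk sac replicate 1 alone reached a start of 5430430K15Rik. Mmp15 and Mmp2, tied with Mmp14, also had 0 and 0 against 2 and 2, all in introns and away from starts of other genes. Their higher-ranking regions were at 95358301 to 95360552 in Mmp15 and at 92846751 to 92848002 in Mmp2. Mmp19 had 2 and 1 liver peaks and none from yolk sac, and the region called in both liver libraries was at 128798001 to 128799252, in an intron.

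Merging the gene-body peaks of all lists gave 60 regions. Both yolk sac libraries alone called 27, both liver libraries alone 3, and all 4 libraries 3. In 1 yolk sac library alone 22 were called, 15 of them in replicate 1. Regions were not merged over all coding genes, so these counts have no background beside them. Coding-gene bodies also held more peaks in the yolk sac lists, 18.2 and 14.8 per Mb against 6.93 and 6.43 in liver. Of the 27 yolk-sac-only regions 25 had their midpoint in an intron and 23 reached no start of another gene. The liver-only regions lay in Adamts9, where yolk sac had its wide promoter peak, in Adamts13 at 27004401 to 27004752 and in Mmp19. Of the regions called in all 4 libraries 2 reached starts of other genes, Cacfd1 at the end of Adamts13 and BC029722 at the end of Mmp24, and the third lay in the first part of Timp2, 6.8 kb from its 5′ end.

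**Figure D5:**
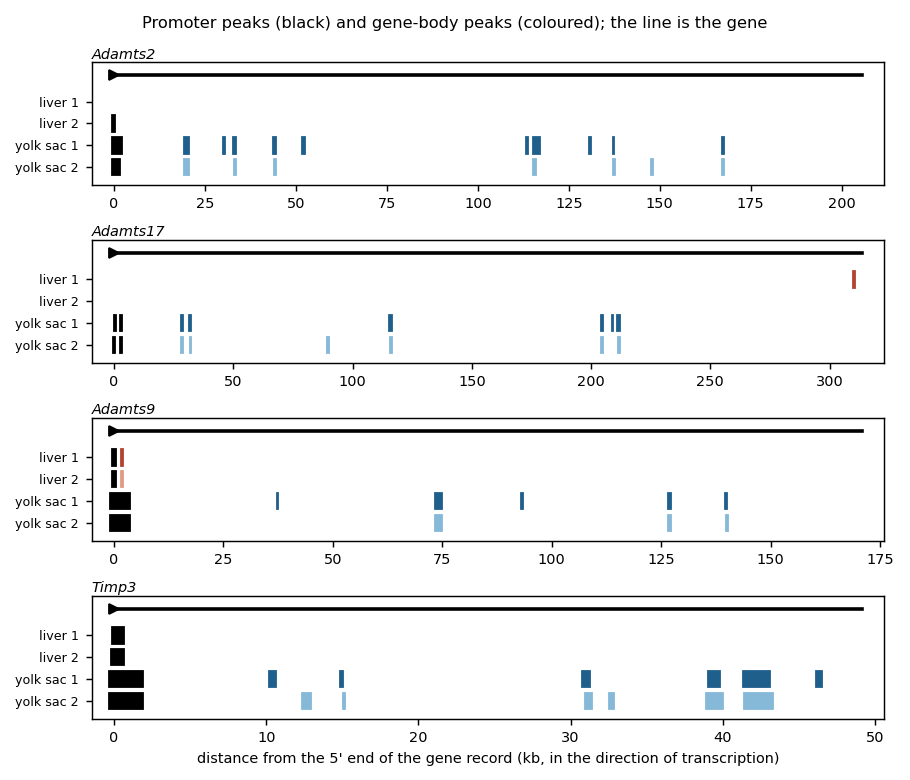
Peaks along Adamts2, Adamts17, Adamts9 and Timp3, in kb from the 5′ end of the gene record in the direction of transcription, with 1 row per library. Black boxes are promoter peaks and coloured boxes gene-body peaks, and peaks too narrow to see are drawn at a minimum width. Coloured boxes lie in the yolk sac rows, except 1 peak of liver replicate 1 near the end of Adamts17 and the liver peaks beside the Adamts9 start, which the yolk sac promoter peak covers.

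Other genes of the pathway were grouped by known role. Their counts stand beside coding-gene shares with a promoter peak of 56.1% and 57.9% in the liver libraries and 63.8% and 62.4% in the yolk sac libraries, of 5.25% yolk-sac-only and of 1.01% liver-only. Of 17 genes that activate or clear MMPs, such as plasminogen activators, proprotein convertases and the inhibitor Reck, 14 and 14 had promoter peaks in the liver libraries, against 15 and 15 for yolk sac, and 13 were called in all 4 libraries with 0 tissue-only. Reck, a membrane-anchored MMP inhibitor, had peaks of 1252 and 1102 bp in liver and 1402 and 1402 bp in yolk sac. Of 15 ADAMTS-like and ADAM genes, liver libraries called 9 and 9 against 14 and 14 by yolk sac libraries. In this list 5 were yolk-sac-only, namely Adamtsl1, Adamtsl2, Adamtsl3, Thsd4 and Adam33, and 1, Adam8, a protease of white blood cells, was liver-only. Adam33 had yolk sac peaks of 1302 and 1302 bp at percentiles 98.4 and 99. ADAMTS-like proteins lack the protease domain and bind to the fibrillin matrix.

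Of 14 substrate genes 5 and 8 were called in liver and 10 and 10 in yolk sac, with the same coding-gene shares (56.1% and 57.9%, 63.8% and 62.4%). Yolk-sac-only calls were at Col2a1, Comp and Bgn (5.25% of coding genes). The promoter of Vwf, the substrate of Adamts13, was liver-only (1.01% of coding genes), with peaks of 1802 and 1602 bp. Gene-body peaks of Vwf numbered 3 and 3 in liver against 5 and 6 in yolk sac. The proteoglycan genes Acan, Bcan and Ncan had no promoter peak in any list, and Vcan was called in both yolk sac libraries and liver replicate 2. Of 11 genes for AP-1, ETS and RUNX factors, which are known to act at MMP promoters, 9 and 10 were called in liver and 11 and 11 in yolk sac. Fosl1 was yolk-sac-only, with peaks of 302 and 102 bp at percentiles of 8.48 and 1.74.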

How the data were processed

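PRO-seq was deposited as 1 peak list per library, for 2 liver and 2 yolk sac samples grouped by the labels' titles. Per the submitters' processing notes the build was mm10 and the tools included Bowtie2 and bedtools; versions, the dREG version and filters are not given in the sources used here. The authors deposited a score for each peak, which was not scaled between libraries, and the lists hold no read counts. GENCODE M21 start sites were used with Python 3.11.15, numpy 2.4.6 and scipy 1.17.1. A peak overlapping the 500 bp on each side of a start by 1 bp was a promoter peak of that gene, and the highest-scoring one gave a gene's width and percentile. Wide peaks may join sites that another list divides. Promoter sequences came from RefSeq (GRCm38.p6, 31 of 45 members). The functions were tested on simulated lists, where 200 of 200 promoter patterns and 200 of 200 gene-body counts were returned. All 45 members were placed in a pattern; gene-body values are given for up to 6 genes per direction, by the gap between tissues. Printed promoters were those of tissue-only members and Timp genes, plus Mmp3 and Mmp13. The members and lists were chosen with earlier results of these data known. Alternatives covered score filters, windows, starts, overlap, shared peaks, left-out libraries and the replicate number as a block. Deposited positions are printed 1-based.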

Additional observations from a re-analysis of the deposited data

How the results depend on the processing

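With 2 libraries against 2 no test could pass a threshold, and changes are given where a value moved past the replicate SD or a count past 1.5 times. None of the 9 summary results changed direction. Promoter and gene-body calls over all coding genes were not counted under the other settings, so the member counts below have no background beside them. When the lower-scoring 50% of every list was dropped, the difference in genes with a promoter peak was 14, with 12 yolk-sac-only genes and 5 genes called in all 4 libraries. The shortened yolk sac lists were still longer than the shortened liver lists. The gene-body log2 ratio was then 1.86, 5 genes had more gene-body peaks in yolk sac and 0 in liver, and the width difference was 0.823. With every list held to 24333 peaks by score, the promoter difference was 2, 2 genes were liver-only (Mmp25 and Timp2), the gene-body log2 ratio was 0.694 and 3 genes had more gene-body peaks in liver. With an overlap of at least 200 bp, the promoter difference was 10, 6 genes were yolk-sac-only, 2 genes had more gene-body peaks in liver and the width difference was 0.872. Without peaks that reach the start of a gene outside the list, the promoter difference was 4.5, 1 gene (Adamts9) was liver-only and the gene-body log2 ratio was 2.52. With the 5′ end of the gene record alone that ratio was 1.95. For single genes 2 reversals occurred: the share of yolk sac minus that of liver libraries with a promoter peak was -0.5 at Adamts20 with the 24333 highest-scoring peaks and -0.5 at Adamts4 without shared peaks. The cause was not tested.

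Leaving out 1 library at a time gave 3 to 8 yolk-sac-only and 0 to 1 liver-only genes, a promoter difference of 5.5 to 8.5 genes, a width difference of 0.951 to 1.45, a gene-body log2 ratio of 2.02 to 2.32, and 10 to 15 and 1 to 2 genes with more gene-body peaks in yolk sac and in liver. The labels do not say what the replicate numbers share. With the replicate block the differences were 7 genes, 2.17 and 1.11 (log2), each with an exact sign-flip p of 0.5, the smallest possible, and over 11805 genes the replicate differences in width of the tissues had a correlation of 0. The unknown depth limits all calls.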
